A study of Mus musculus with 24 samples.

Results

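The genes described here are 40 interferon-stimulated genes of the mouse that lie outside the OAS, IFIT, ISG15, GBP and antigen-presentation families. They were chosen by name, as the rows of the deposited count table that carry their symbols, and all 40 were found among its 25229 rows. Of these, 38 had enough reads to be tested together with 12941 genes in all. The members with too few reads for this were Slfn5, with at most 5 reads in any library, and Epsti1, with at most 22.

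Interferons bind receptors at the cell surface, and the kinases JAK1 and TYK2 then activate transcription factors of the STAT family. With IRF9 these form a complex that binds a short DNA element, the interferon-stimulated response element (ISRE), in front of many genes. The proteins made from these genes block viral entry, replication and release, degrade or sense foreign nucleic acids, modify other proteins with ADP-ribose or ubiquitin, and build nuclear bodies. In tumor cells the same genes can be turned on by the cell's own DNA or RNA in the wrong compartment, through the cGAS-STING and RIG-I pathways.

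Polyadenylated RNA was sequenced from ID8 P53 KO cells, an ovarian cancer line of C57BL/6 mouse origin that lacks p53 in every group. The cells were kept for 6 days with 1 of 4 treatments: DMSO (the vehicle), AU-15330 at 2.5 uM, cisplatin at 750 nM, or both drugs together (the combination). AU-15330 is a proteolysis-targeting chimera that removes the chromatin remodeling ATPases SMARCA4 and SMARCA2 as proteins, so their mRNA does not check the labels, and cisplatin is a DNA-crosslinking chemotherapy drug. Each treatment had 6 libraries, and the labels do not say whether these came from separate cultures, so p-values measure the spread between these libraries, which may be technical.

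The 24 libraries held 17592588 to 25260009 counted reads, and 3 reads corresponded to 0.120 to 0.186 CPM, the read count scaled to library size. The median over the members, on a log2 scale relative to each gene's mean over all libraries, was 0.64 to 0.97 in cisplatin libraries 1 to 3 and 1.21 to 1.30 in cisplatin libraries 4 to 6. In AU-15330 it was 0.39 to 0.47 in libraries 1 to 3 and 0.26 to 0.32 in libraries 4 to 6. The sets overlapped in DMSO (-1.75 to -1.53 and -1.59 to -1.48) and in the combination (0.33 to 0.47 and 0.39 to 0.58). The labels give no batch, and the counts of members called were repeated within each set of numbers. Of 20 leukocyte marker genes only Cd68, a lysosomal protein that many cell types make, passed the low-count filter, with group medians of 10.6 CPM in DMSO, 35.2 CPM in AU-15330, 8.88 CPM in cisplatin and 34.3 CPM in the combination; the pan-leukocyte marker Ptprc had at most 5 reads in any library. Summed over the list, the leukocyte markers ran from 7.06 to 19.5 CPM in DMSO, 18.1 to 54.3 CPM in AU-15330, 7.88 to 14.4 CPM in cisplatin and 25.3 to 43.6 CPM in the combination. Of 6 endothelial markers only Pecam1 passed, with medians of 3.63, 0.431, 10.1 and 0.838 CPM in the same order, and Cdh5 had at most 3 reads in any library. Of 12 markers of the ID8 line itself, 11 were tested (Epcam had at most 2 reads). The summed level of the list was 3665 to 5461 CPM in DMSO, 1255 to 1382 CPM in AU-15330, 4490 to 5150 CPM in cisplatin and 1389 to 1572 CPM in the combination. AU-15330 lowered 10 of the 11 and raised 1, Cdh2 (log2 1.00), against 37.2% and 36.2% of all genes. Krt19 had the largest fall, from a mean of 1783 CPM in DMSO to 7.01 CPM in AU-15330. The part of these changes in the results on the members was not tested.

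A promoter of 30 of the 40 members was held in the RefSeq promoter table used here (GRCm38.p6, the assembly that mm10 names), and Mx1, Mx2, Parp9, Parp10, Parp14, Trim14, Ifi204, Ifi27l2a, Rtp4 and Tor3a had no entry. The core of the ISRE was searched as GAAANNGAAA (TTTCNNTTTC on the other strand) and the core of the gamma-activated site as TTCNNNGAA, which reads the same on both strands; matches of the cores can overlap each other, as in Bst2 and Ifitm3. An ISRE core stood within the promoter entries of 12 of the 30 members (40%), against 3.44% of all 32851 promoters and 3.99% of the 27025 genes with a promoter. These entries are longer than the windows below. The cores of Trim21 and Ifitm3 lay after the start site, and those of Bst2, Tdrd7 and the untested Slfn5 began farther before it than the windows reach. A gamma-activated core stood in 4 of 30 (13.3%), against 8.30% of all promoters and 9.55% of genes. A match is a run of letters and not a bound site. The windows below are the 120 bases before the start site, read 5′ to 3′ on the gene's strand with the ISRE core in capitals. They are those of every member with a core wholly inside them. Trim30a, Ifi203 and Ddx60 had their highest mean level in AU-15330. Slfn8 and Phf11b were raised by cisplatin and not called in AU-15330. Rsad2 and Slfn9 were raised by both drugs, most by cisplatin.
Trim30a (chr7:104465194-104465313, minus strand): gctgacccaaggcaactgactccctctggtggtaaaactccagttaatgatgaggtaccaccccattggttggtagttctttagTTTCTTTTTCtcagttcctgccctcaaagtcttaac
Ifi203 (chr1:173942493-173942612, minus strand): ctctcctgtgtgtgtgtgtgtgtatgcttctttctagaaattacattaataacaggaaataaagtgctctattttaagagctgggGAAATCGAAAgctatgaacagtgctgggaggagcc
Ddx60 (chr8:61927967-61928086, plus strand): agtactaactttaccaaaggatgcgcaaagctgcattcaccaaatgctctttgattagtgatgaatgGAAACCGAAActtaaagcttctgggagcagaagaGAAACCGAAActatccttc
Rsad2 (chr12:26456453-26456572, minus strand): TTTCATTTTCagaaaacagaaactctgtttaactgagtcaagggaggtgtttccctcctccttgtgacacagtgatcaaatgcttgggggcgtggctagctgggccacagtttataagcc
Slfn9 (chr11:82991831-82991950, minus strand): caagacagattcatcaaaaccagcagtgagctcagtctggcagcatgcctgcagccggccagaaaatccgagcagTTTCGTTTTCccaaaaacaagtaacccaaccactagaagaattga
Slfn8 (chr11:83020811-83020930, minus strand): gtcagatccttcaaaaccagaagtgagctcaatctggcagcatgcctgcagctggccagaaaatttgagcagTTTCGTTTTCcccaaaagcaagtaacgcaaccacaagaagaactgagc
Phf11b (chr14:59341331-59341450, minus strand): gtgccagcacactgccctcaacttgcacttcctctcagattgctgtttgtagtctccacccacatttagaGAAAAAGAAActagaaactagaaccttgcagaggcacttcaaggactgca
The Ddx60 window holds 2 cores, and the windows of the neighboring genes Slfn9 and Slfn8 hold the same core letters on the opposite strand. Another promoter entry of Ifi203 held no ISRE core. Among tested members with a promoter entry, the core was found in 8 of 19 that rose with AU-15330, in 0 of 3 that fell and in 3 of 6 that were not called. Mx1 and Ifi204 also fell but had no entry. The 3 not called were Ifitm3, Slfn8 and Phf11b, and Slfn8 and Phf11b held at most 6 reads in any AU-15330 library.

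Cisplatin raised nearly all members. With edgeR's quasi-likelihood test at an adjusted p under 0.05, 37 of 38 tested members were higher in cisplatin than in DMSO and 0 were lower, against 26% of all tested genes called higher and 25.7% called lower, and in all 37 the lowest cisplatin library lay above the highest DMSO library, against 14.1% of all genes. The median log2 fold change was 2.83 over the members and -0.0041 over all genes tested, and 32 members rose more than 2-fold, against 11.1% of all genes. The exception was Isg20. Phf11b, Phf11d, Slfn2 and Slfn8 passed the low-count filter (0.457 CPM in at least 6 libraries) only through their cisplatin libraries, so they had to differ there and are no support for the count. Of the other 34, 33 rose with cisplatin, with a median log2 fold change of 2.36 over the 34. In these cell populations, fewer cells expressing a gene and less RNA per cell cannot be told apart.

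AU-15330 alone divided the members. In AU-15330 against DMSO, 26 were higher and 5 lower, against 36.2% and 37.2% of all genes, with a median log2 fold change of 2.06 over the members. The 5 that fell were Mx1, Isg20, Ifi204, Ifi44 and Ifi47, and 7 were not called: Ifitm3, Sp100, Trim14, Phf11b, Phf11d, Slfn2 and Slfn8. Without replicate 5, Phf11b and Phf11d were called lower as well (log2 -2.11 and -1.11). Phf11d was also called lower in libraries 1 to 3 alone (-1.14), and in libraries 4 to 6 alone Ifitm3 was (-0.45). The comparisons of each drug with DMSO share the 6 DMSO libraries, so their values are given side by side and not as separate evidence.

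Adding AU-15330 to cisplatin lowered more members than it raised. In the combination against cisplatin, 11 were higher and 21 lower, against 35.4% and 32.7% of all genes, and the median log2 fold change was -0.68 over the members and 0.04 over all genes. Without the 4 members that passed the filter only through cisplatin, 11 were higher and 17 lower of 34, with a median of -0.38. Against AU-15330 alone the combination had 10 members higher and 10 lower (26.3% each), near the 22.2% and 19.5% of all genes. In the combination against DMSO, 28 members were higher and 3 lower, against 36.8% and 36.5% of all genes. In libraries 1 to 3 alone the combination was above cisplatin for 9 members and below it for 19 (24.4% and 27.5% of all genes), and in libraries 4 to 6 alone for 10 and 26 (33.7% and 35.3%). AU-15330 raised 26 members in each set (29% and 35.4% of all genes) and cisplatin 37 (17.8% and 26.4%). By the mean CPM of each group, the combination lay between the single drugs for 32 of 38 tested members. It lay below both for 6 (Bst2, Ddx60, Dtx3l, Lgals3bp, Rtp4 and Trim14). Among these 6 only Rtp4 was called lower against both drugs, and Dtx3l was called against neither. Cisplatin was the highest group for 23 members, AU-15330 for 14 and DMSO for 1. The 23 include Phf11b, Phf11d, Slfn2 and Slfn8, whose place there was fixed by the low-count filter. These orders were not counted over all genes.

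**Figure D1:**
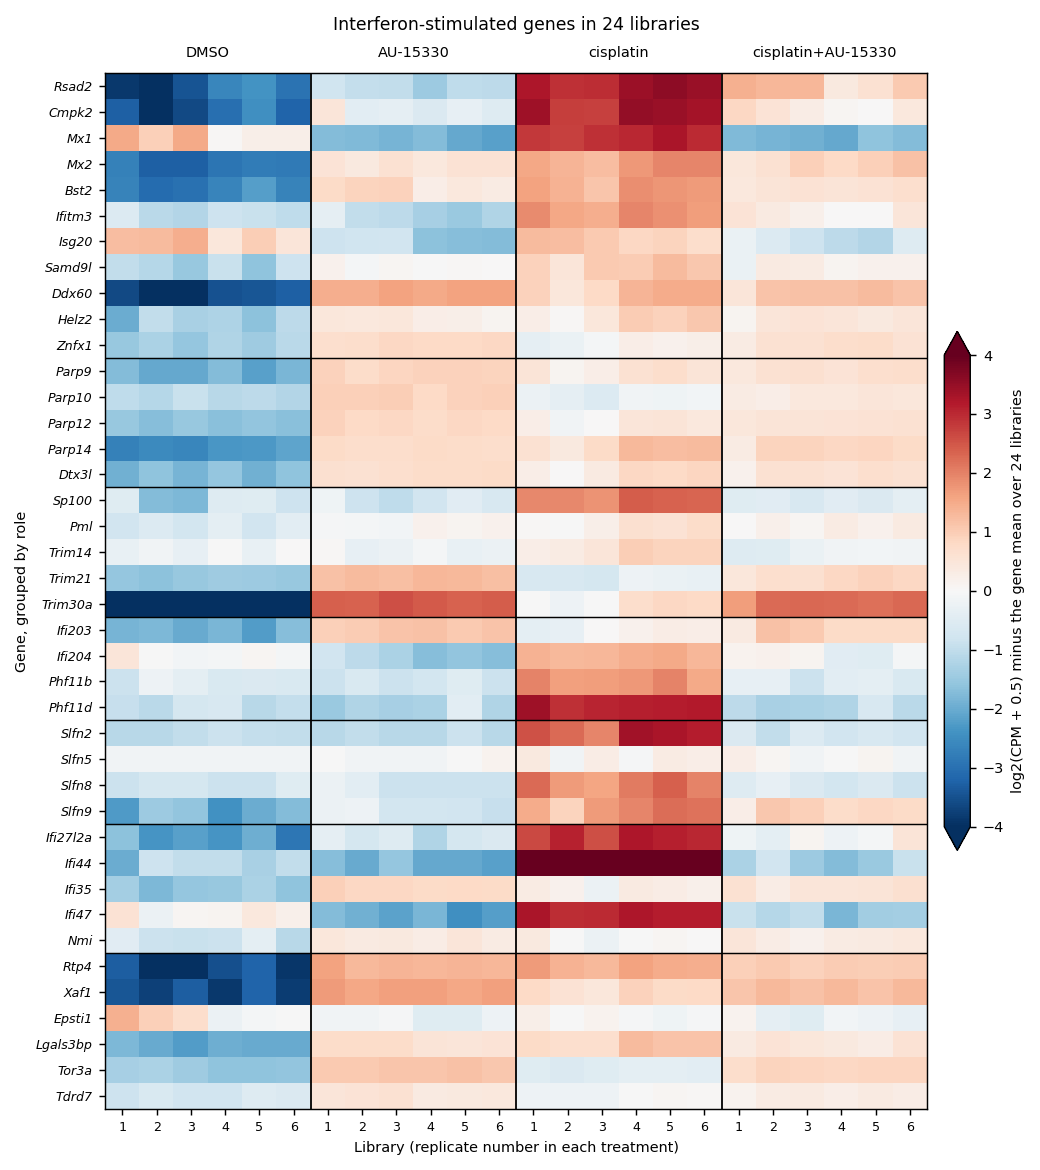
Level of the 40 genes in the 24 libraries. Rows are genes grouped by role with black lines between groups, columns are libraries, and color is log2(CPM + 0.5) minus the gene's mean over 24 libraries, with colors held at the ends of the scale beyond 4. Most DMSO columns are blue and most cisplatin columns red, whereas the Ifi44, Phf11b, Phf11d, Slfn2 and Slfn8 rows are red under cisplatin alone and the Mx1 and Isg20 rows are red under both DMSO and cisplatin.

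Taking the called direction in cisplatin against DMSO, in AU-15330 against DMSO and in the combination against cisplatin, the 38 members fell into 6 patterns. The share of all genes with each pattern was not counted. In 11 members, both single drugs raised the gene and the combination was above cisplatin (Znfx1, Parp10, Parp12, Trim21, Trim30a, Ifi203, Ifi35, Nmi, Xaf1, Tor3a and Tdrd7). In 9, both drugs raised the gene and the combination was below cisplatin (Rsad2, Cmpk2, Mx2, Bst2, Samd9l, Slfn9, Ifi27l2a, Rtp4 and Lgals3bp), and in 6 the combination was not called against cisplatin (Ddx60, Helz2, Parp9, Parp14, Dtx3l and Pml). Another 4 rose with cisplatin, fell with AU-15330 and were below cisplatin in the combination (Mx1, Ifi204, Ifi44 and Ifi47). Of the 7 genes not called in AU-15330, Ifitm3, Sp100 and Trim14 rose with cisplatin and were lower in the combination than in cisplatin. The calls of Phf11b, Phf11d, Slfn2 and Slfn8 had the same directions but were fixed by the low-count filter, and Isg20 was not called in cisplatin and was lower in the other comparisons. Without replicate 2 the combination was called below cisplatin for Helz2, Parp14 and Pml (log2 -0.38, -0.32 and -0.27) and without replicate 1 for Pml (-0.27), and without replicate 3 the call of Parp12 above cisplatin was lost (0.20). Pml was also called below cisplatin in the replicate block fit (-0.18), and Parp9 above it with total counts as scaling (0.21). In libraries 4 to 6 alone Parp12 was not called above cisplatin, and Ddx60, Helz2, Parp14, Dtx3l and Pml were called below it (log2 -0.29, -0.59, -0.48, -0.26 and -0.40). The calls of Ifi35 and Nmi above cisplatin and of Rtp4 and Slfn9 below it were lost in libraries 1 to 3 alone.

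**Figure D2:**
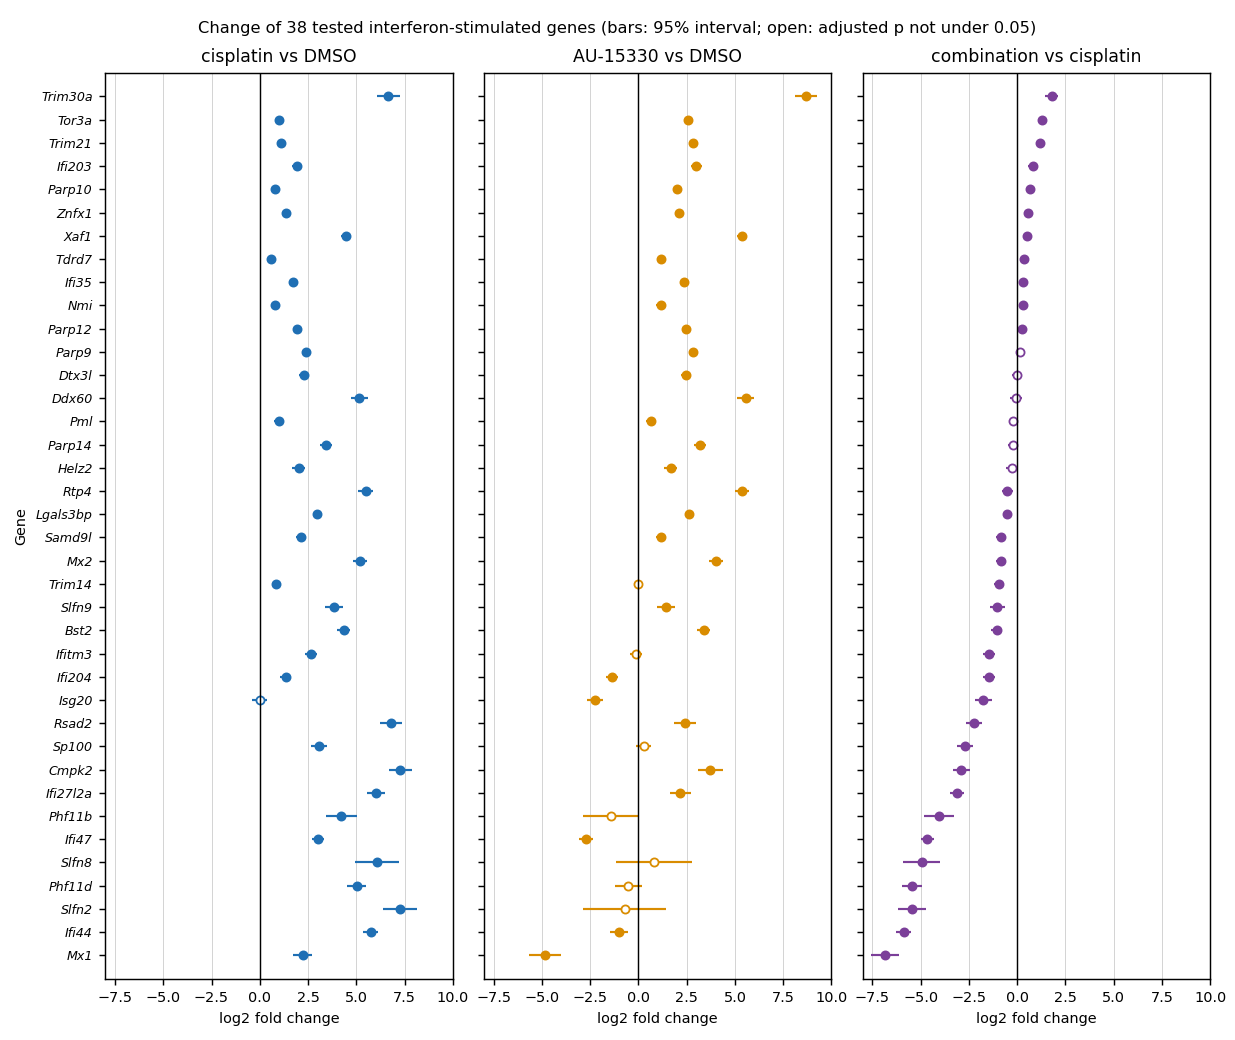
Log2 fold change of the 38 tested genes in cisplatin vs DMSO, AU-15330 vs DMSO and combination vs cisplatin (6 libraries per group). Genes are ordered by combination vs cisplatin, bars are 95% intervals, and open circles have an adjusted p not under 0.05. The left panel holds 1 open circle, Isg20, and the right panel runs from -6.85 for Mx1 to 1.78 for Trim30a.

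The group of antiviral effectors holds proteins that act on the virus directly and others, such as RNA sensors, that do not. Of these 11 genes, 10 rose with cisplatin (26% of all genes), and 8 rose and 2 fell with AU-15330 (36.2% and 37.2%). In the combination 8 were below cisplatin (32.7% of all genes) and 1 (Znfx1, a sensor of double-stranded RNA) above it (35.4%). Cmpk2, a mitochondrial nucleotide kinase encoded beside Rsad2 on chromosome 12, ran from 0.0974 to 1.35 CPM (median 0.581) in DMSO, 6.29 to 13.7 CPM (median 7.29) in AU-15330, 67.8 to 118 CPM (median 105) in cisplatin and 9.87 to 17.6 CPM (median 12.6) in the combination. Its DMSO, AU-15330 and cisplatin libraries did not overlap. It rose with cisplatin by 7.29 ± 0.30 (SE) on the log2 scale (edgeR adjusted p = 1.56e-16) and with AU-15330 by 3.73 ± 0.31 (edgeR adjusted p = 3.96e-11), and was lower in the combination than in cisplatin, at -2.90 ± 0.21 (edgeR adjusted p = 4.34e-12). Its divergent neighbor Rsad2 encodes viperin, which makes a chain-terminating nucleotide, and had log2 fold changes of 6.79 in cisplatin, 2.40 in AU-15330 and -2.23 in the combination against cisplatin.

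Ddx60, a helicase that assists RIG-I, ran from 0.820 to 2.19 CPM (median 1.72) in DMSO, 69.7 to 78.5 CPM (median 75.7) in AU-15330, 34.9 to 72.1 CPM (median 57.5) in cisplatin and 35.5 to 61.9 CPM (median 57.1) in the combination. All treated libraries lay above all DMSO libraries, while cisplatin and combination libraries overlapped, and the combination differed from cisplatin by -0.0563 ± 0.16 (SE; 95% interval -0.38 to 0.27; edgeR adjusted p = 0.767). Against DMSO the rise was 5.56 ± 0.21 with AU-15330 (edgeR adjusted p = 5.41e-18) and 5.16 ± 0.21 with cisplatin (edgeR adjusted p = 1.66e-16). Helz2, a helicase that also acts as a coactivator of nuclear receptors, had the highest mean log CPM of this group and ran from 29.9 to 60.0 CPM (median 49.6) in DMSO, 130.2 to 165 CPM (median 152) in AU-15330, 123 to 252 CPM (median 196) in cisplatin and 129 to 174 CPM (median 167) in the combination. Its 3 treated groups overlapped each other and none overlapped DMSO, with log2 fold changes against DMSO of 2.02 ± 0.17 in cisplatin (edgeR adjusted p = 1.56e-10) and 1.67 ± 0.16 in AU-15330 (edgeR adjusted p = 9.82e-10).

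Mx1 encodes a GTPase that traps influenza nucleocapsids, and laboratory C57BL/6 mice carry a disrupted copy. Its reads ran from 1.84 to 6.06 CPM (median 3.06) in DMSO, 0 to 0.191 CPM (median 0.150) in AU-15330, 14.8 to 21.6 CPM (median 17.02) in cisplatin and 0.0455 to 0.240 CPM (median 0.152) in the combination. Every AU-15330 and combination library held at most 5 reads of Mx1, below every DMSO and cisplatin library. Mx1 rose with cisplatin by 2.24 ± 0.24 (edgeR adjusted p = 1.83e-08) and fell with AU-15330, at -4.84 ± 0.40 (edgeR adjusted p = 3.30e-11); by pooled reads, DMSO was above AU-15330 by a ratio of 29.3 (95% counting interval 17.8 to 51.7), which covers counting error only. The paralog Mx2, annotated as a polymorphic pseudogene in GENCODE, moved the other way under AU-15330, running from 0.676 to 1.24 CPM (median 1.05) in DMSO, 14.3 to 17.02 CPM (median 16.2) in AU-15330, 26.3 to 43.4 CPM (median 35.1) in cisplatin and 15.1 to 25.2 CPM (median 20.3) in the combination. Its DMSO libraries lay below all others, and its log2 fold change was 4.03 ± 0.17 in AU-15330 (edgeR adjusted p = 5.29e-17) and 5.19 ± 0.17 in cisplatin (edgeR adjusted p = 3.37e-18). Of the 70-base stretches of their transcripts, 2.08% of those of Mx1 and 2.42% of those of Mx2 also occur in other genes.

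Isg20, an exonuclease that degrades single-stranded RNA, was the only tested member that cisplatin did not raise. It ran from 32.0 to 64.2 CPM (median 50.1) in DMSO, 6.58 to 13.4 CPM (median 9.85) in AU-15330, 38.3 to 56.8 CPM (median 45.8) in cisplatin and 9.87 to 19.2 CPM (median 14.2) in the combination. DMSO and cisplatin overlapped throughout, with a difference of -0.0137 ± 0.20 (95% interval -0.42 to 0.39; edgeR adjusted p = 0.962), and both lay above every AU-15330 and combination library. It fell with AU-15330, at -2.25 ± 0.21 (edgeR adjusted p = 4.43e-10), and in the combination against cisplatin, at -1.74 ± 0.21 (edgeR adjusted p = 3.62e-08). The others were Bst2 (tetherin, which holds budding virus at the surface), Samd9l (an inhibitor of translation), both raised by each drug, and Ifitm3 (a block to viral entry), which rose with cisplatin by 2.67 and had a log2 fold change of -0.12 in AU-15330 that was not called.

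**Figure D3:**
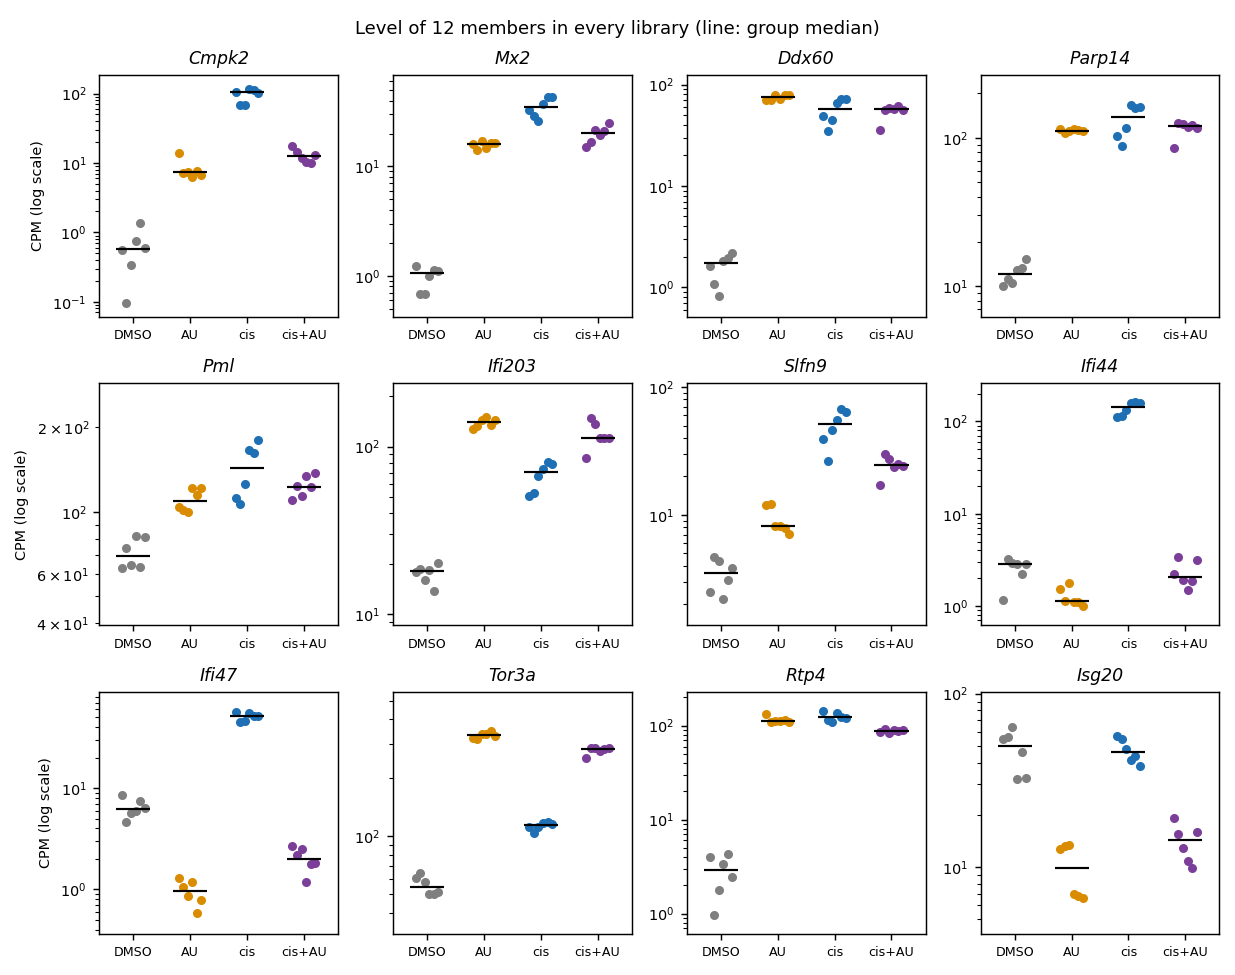
CPM of 12 members in every library on a log scale, by treatment (AU, AU-15330; cis, cisplatin; cis+AU, the combination); each point is 1 library and each black line the group median. The Ifi44 and Ifi47 cisplatin points stand above all others, the Tor3a points are highest in AU-15330, and the Isg20 points of both AU-15330 groups lie below DMSO and cisplatin.

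All 5 genes of the ADP-ribosyltransferases and their partner Dtx3l rose with each drug, against 26% of all genes with cisplatin and 36.2% with AU-15330. Parp12, a transferase found at the Golgi, ran from 39.0 to 44.0 CPM (median 40.9) in DMSO, 212 to 239 CPM (median 223) in AU-15330, 116 to 180.1 CPM (median 161) in cisplatin and 175 to 194 CPM (median 183) in the combination. DMSO lay below all treated libraries. The log2 fold change was 2.44 ± 0.0878 with AU-15330 (edgeR adjusted p = 1.61e-18) and 1.90 ± 0.0864 with cisplatin (edgeR adjusted p = 1.35e-15). The combination was above cisplatin by 0.25 ± 0.0827 (edgeR adjusted p = 0.00850), with overlapping libraries. The call was lost without replicate 3, at 0.20 (edgeR adjusted p = 0.0552), and in libraries 4 to 6 alone, at 0.0733 (edgeR adjusted p = 0.289). Parp14, a large transferase with macrodomains, ran from 9.96 to 15.2 CPM (median 12.03) in DMSO, 109 to 115 CPM (median 112) in AU-15330, 88.5 to 167 CPM (median 138) in cisplatin and 85.0 to 126 CPM (median 121) in the combination, and its treated groups overlapped each other and not DMSO. It rose by 3.44 ± 0.15 with cisplatin (edgeR adjusted p = 3.36e-16) and by 3.20 ± 0.15 with AU-15330 (edgeR adjusted p = 1.69e-16). Parp10, which adds single ADP-ribose units, showed the clearest step between groups, with 59.2 to 70.6 CPM (median 62.8) in DMSO, 90.5 to 122 CPM (median 116) in cisplatin, 161 to 184 CPM (median 179) in the combination and 229 to 265 CPM (median 255.4) in AU-15330. No 2 of these 4 groups overlapped, and the combination was above cisplatin by 0.66 ± 0.0677 (edgeR adjusted p = 3.15e-09) and below AU-15330, at -0.53 ± 0.0673 (edgeR adjusted p = 7.57e-07). Parp9 and Dtx3l, which act as 1 ubiquitin ligase complex, overlap each other on opposite strands, and their log2 fold changes were 2.40 and 2.32 in cisplatin and 2.81 and 2.45 in AU-15330. The use of strand in counting is not given in the sources used here, so their reads cannot be told apart where they overlap.

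Nuclear body and TRIM genes held the largest rise of any member. Trim30a, a mouse member of the TRIM ubiquitin ligase family, ran from 0 to 0.619 CPM (median 0.324) in DMSO, 126 to 145 CPM (median 131) in AU-15330, 21.1 to 43.6 CPM (median 32.1) in cisplatin and 77.9 to 122 CPM (median 118) in the combination. DMSO libraries held at most 11 reads of it, and cisplatin libraries lay below all AU-15330 and combination libraries. Scaled to library size, the pooled reads of AU-15330 were above those of DMSO by a ratio of 418 (95% counting interval 304 to 591). The pooled reads of cisplatin were above those of DMSO by a ratio of 104 (95% counting interval 75.6 to 147). The edgeR test gave log2 fold changes against DMSO of 8.68 ± 0.28 (adjusted p = 2.57e-19) and 6.65 ± 0.29 (adjusted p = 4.17e-16). The combination was above cisplatin by 1.78 ± 0.17 (edgeR adjusted p = 9.57e-10). Of its 70-base stretches, 5.10% are shared with other genes.

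Pml, the scaffold of PML nuclear bodies, changed least among the genes that both drugs raised in this group. It ran from 63.0 to 81.7 CPM (median 69.3) in DMSO, 99.8 to 122 CPM (median 109.6) in AU-15330, 106 to 179.7 CPM (median 144) in cisplatin and 109.9 to 138 CPM (median 123) in the combination, with no overlap of DMSO with the other groups. The rise was 0.99 ± 0.11 with cisplatin (edgeR adjusted p = 5.15e-08) and 0.63 ± 0.11 with AU-15330 (edgeR adjusted p = 1.65e-05). Sp100, another component of the same bodies, behaved otherwise, running from 5.69 to 14.9 CPM (median 13.1) in DMSO, 10.1 to 18.8 CPM (median 12.7) in AU-15330, 74.3 to 115 CPM (median 94.2) in cisplatin and 13.2 to 16.03 CPM (median 14.97) in the combination. Cisplatin stood alone above the other groups, which overlapped. Sp100 rose with cisplatin by 3.08 ± 0.20 (edgeR adjusted p = 2.31e-12), was not called in AU-15330 at 0.27 ± 0.20 (95% interval -0.14 to 0.68; edgeR adjusted p = 0.229), and was lower in the combination than in cisplatin, at -2.68 ± 0.20 (edgeR adjusted p = 4.70e-12). Trim21, a cytosolic antibody receptor, had log2 fold changes of 2.82 in AU-15330 and 1.10 in cisplatin. Trim14, an adaptor at mitochondria, had -0.0057 and 0.86, and shares 32.3% of its 70-base stretches with genes of the opposite strand, among them Nans.

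The HIN200 genes encode sensors that bind DNA, and the Phf11 genes lie close together on chromosome 14. Ifi203 ran from 13.7 to 20.04 CPM (median 18.01) in DMSO, 127 to 150.1 CPM (median 140.1) in AU-15330, 50.6 to 80.5 CPM (median 70.1) in cisplatin and 85.3 to 149 CPM (median 113) in the combination. AU-15330 was above cisplatin in every library and DMSO was below all others. It rose by 3.00 ± 0.13 with AU-15330 (edgeR adjusted p = 8.26e-17) and 1.95 ± 0.13 with cisplatin (edgeR adjusted p = 2.15e-12), and the combination was above cisplatin by 0.82 ± 0.12 (edgeR adjusted p = 1.38e-06). Ifi204, from the same cluster on chromosome 1, ran from 32.9 to 50.2 CPM (median 34.7) in DMSO, 10.5 to 20.9 CPM (median 13.2) in AU-15330, 87.7 to 102 CPM (median 92.8) in cisplatin and 25.2 to 40.5 CPM (median 36.2) in the combination. Cisplatin libraries were the highest and AU-15330 libraries the lowest, without overlap, while DMSO and the combination overlapped. Ifi204 rose with cisplatin by 1.33 ± 0.15 (edgeR adjusted p = 3.85e-08), fell with AU-15330, at -1.39 ± 0.15 (edgeR adjusted p = 9.43e-09), and was lower in the combination than in cisplatin, at -1.47 ± 0.15 (edgeR adjusted p = 2.17e-09). It shares 14.1% of its 70-base stretches with other genes.

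Phf11d was almost silent outside cisplatin, running from 0.323 to 0.627 CPM (median 0.426) in DMSO, 0.135 to 0.825 CPM (median 0.250) in AU-15330, 12.9 to 17.9 CPM (median 14.7) in cisplatin and 0.219 to 0.623 CPM (median 0.299) in the combination. Only the cisplatin libraries stood apart, with log2 values of 5.01 ± 0.24 against DMSO and -5.45 ± 0.24 for the combination against cisplatin, and it passed the low-count filter through them alone. In AU-15330 it was not called at -0.52 ± 0.34 (edgeR adjusted p = 0.162), but without replicate 5 the value was -1.11 (edgeR adjusted p = 0.00206). Phf11b, with at most 6 reads per DMSO library, rose with cisplatin by a pooled ratio of 19.4 (95% counting interval 11.8 to 34.3), but 30.2% of its 70-base stretches occur in other genes, the highest share among the members on the same strand.

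Schlafen genes form a cluster on chromosome 11, and some of their proteins bind transfer RNA. Slfn9 ran from 2.19 to 4.72 CPM (median 3.49) in DMSO, 7.04 to 12.1 CPM (median 8.19) in AU-15330, 26.5 to 67.2 CPM (median 51.1) in cisplatin and 17.04 to 29.7 CPM (median 24.6) in the combination. DMSO was lowest and AU-15330 next, without overlap, and the combination libraries overlapped the cisplatin range. It rose by 3.85 ± 0.23 with cisplatin (edgeR adjusted p = 2.58e-13) and 1.41 ± 0.22 with AU-15330 (edgeR adjusted p = 3.46e-06). The combination against cisplatin was -1.03 ± 0.19 (edgeR adjusted p = 3.42e-05). This call was lost in libraries 1 to 3 alone, at -0.63 (edgeR adjusted p = 0.0535). Slfn2 and Slfn8 were detected at more than a few reads only in cisplatin. Slfn2 had 5 reads over the 6 DMSO libraries, 3 in AU-15330, 1034 in cisplatin and 21 in the combination, a ratio of cisplatin over DMSO of 177 (95% counting interval 75.6 to 546). Slfn8 had 5, 10, 448 and 13 reads in the same order, a ratio of 76.7 (95% counting interval 32.6 to 237). For both genes every cisplatin library lay above every library of the other groups. As both passed the low-count filter through these libraries alone, their calls against cisplatin are no support. The combination was called above DMSO for Slfn2 (edgeR adjusted p = 0.0298) on at most 5 reads per library, and this call was lost without replicate 1 (edgeR adjusted p = 0.120), without replicate 3 (0.0517) and without replicate 6 (0.0529). Slfn5 had 0 reads in every DMSO library, 4 over the AU-15330 libraries, 19 in cisplatin and 9 in the combination, too few for the filter. Fitted with no filter, it was called above DMSO in cisplatin (edgeR adjusted p = 0.00282) and in the combination (0.0164), as it was with DESeq2 (adjusted p = 0.00636 and 0.0431).

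The 5 IFI genes, Nmi included, all rose with cisplatin (26% of all genes), while AU-15330 raised 3 and lowered 2 (36.2% and 37.2%). The share lowered by AU-15330 is near the background. Ifi44, a cytoplasmic antiproliferative protein, ran from 1.18 to 3.21 CPM (median 2.85) in DMSO, 0.992 to 1.77 CPM (median 1.13) in AU-15330, 111 to 163 CPM (median 145) in cisplatin and 1.5 to 3.42 CPM (median 2.08) in the combination. Cisplatin libraries lay far above all others, and the other groups overlapped. It rose with cisplatin by 5.76 ± 0.19 (edgeR adjusted p = 3.37e-18), fell with AU-15330, at -0.99 ± 0.23 (edgeR adjusted p = 3.68e-04), and in the combination was lower than in cisplatin, at -5.88 ± 0.19 (edgeR adjusted p = 4.05e-19). The fall with AU-15330 was -0.74 in libraries 1 to 3 alone (edgeR adjusted p = 0.0624), where it was not called. Ifi47, an immunity-related GTPase, ran from 4.58 to 8.47 CPM (median 6.16) in DMSO, 0.583 to 1.31 CPM (median 0.960) in AU-15330, 45.5 to 56.2 CPM (median 52.0) in cisplatin and 1.18 to 2.68 CPM (median 2.00) in the combination. Cisplatin was the highest group and DMSO the next, and neither overlapped another group. It rose with cisplatin by 3.00 ± 0.15 (edgeR adjusted p = 6.30e-15), fell with AU-15330, at -2.72 ± 0.19 (edgeR adjusted p = 6.94e-13), and the combination against cisplatin was -4.66 ± 0.16 (edgeR adjusted p = 1.95e-18).

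Ifi27l2a, a small mitochondrial membrane protein, ran from 0.186 to 1.11 CPM (median 0.560) in DMSO, 1.72 to 3.42 CPM (median 2.75) in AU-15330, 30.0 to 47.1 CPM (median 41.1) in cisplatin and 3.38 to 6.69 CPM (median 4.12) in the combination. DMSO was below all treated libraries and cisplatin above all others. Its log2 fold changes were 6.01 ± 0.23 in cisplatin (edgeR adjusted p = 6.83e-17), 2.17 ± 0.26 in AU-15330 (edgeR adjusted p = 4.34e-08) and -3.10 ± 0.18 in the combination against cisplatin (edgeR adjusted p = 4.84e-14). The binding partners Ifi35 and Nmi rose with each drug. Ifi35 ran from 19.7 to 28.6 CPM (median 23.9) in DMSO, 118 to 137 CPM (median 123) in AU-15330, 60.0 to 90.2 CPM (median 83.2) in cisplatin and 86.3 to 109 CPM (median 99.8) in the combination, with every AU-15330 library above every cisplatin library. It rose by 2.36 ± 0.0935 with AU-15330 (edgeR adjusted p = 1.01e-17) and by 1.74 ± 0.0921 with cisplatin (edgeR adjusted p = 3.45e-14), and Nmi by 1.15 and 0.80.

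The other 6 genes have mixed functions, and the 5 that were tested rose with each drug. Of all genes, cisplatin raised 26% and AU-15330 36.2%. Tor3a, a member of the torsin ATPases of the endoplasmic reticulum, ran from 50.03 to 64.4 CPM (median 54.8) in DMSO, 317 to 348 CPM (median 332) in AU-15330, 104 to 118 CPM (median 114) in cisplatin and 254 to 285 CPM (median 282) in the combination. All 4 groups were apart from each other. It rose by 2.57 ± 0.0653 with AU-15330 (edgeR adjusted p = 2.19e-21) and 1.01 ± 0.0627 with cisplatin (edgeR adjusted p = 7.20e-13), and the combination was above cisplatin by 1.30 ± 0.0624 (edgeR adjusted p = 8.38e-16). Rtp4, a chaperone of G protein-coupled receptors, ran from 0.974 to 4.31 CPM (median 2.91) in DMSO, 109 to 135 CPM (median 112) in AU-15330, 109 to 144 CPM (median 122) in cisplatin and 83.1 to 91.1 CPM (median 88.8) in the combination. AU-15330 and cisplatin overlapped, DMSO was far below, and every combination library was below every library of either single drug. The rise was 5.48 ± 0.19 with cisplatin (edgeR adjusted p = 4.30e-18) and 5.37 ± 0.18 with AU-15330 (edgeR adjusted p = 6.73e-19). The difference of the combination from cisplatin was -0.51 ± 0.14 (edgeR adjusted p = 0.00273) and from AU-15330 -0.39 ± 0.14 (edgeR adjusted p = 0.0281). In libraries 1 to 3 alone neither was called (edgeR adjusted p = 0.0733 and 0.159). The call against AU-15330 was also lost without replicate 3, 4 or 6 (edgeR adjusted p = 0.0646, 0.0585 and 0.0563). Xaf1, which opposes the apoptosis inhibitor XIAP, had log2 fold changes of 5.35 in AU-15330 and 4.45 in cisplatin, and Lgals3bp (a secreted galectin ligand) and Tdrd7 (a protein of RNA granules) had 2.64 and 1.15 in AU-15330 and 2.98 and 0.60 in cisplatin. Epsti1 had 61 reads over the DMSO libraries, 12 in AU-15330, 28 in cisplatin and 13 in the combination, too few for the filter. Fitted with no filter, it was called below DMSO in AU-15330 (log2 -2.48; edgeR adjusted p = 0.00156) and in the combination (-2.41; 0.00175) and not in cisplatin (-1.40; 0.0544), and DESeq2 made the same calls. In libraries 1 to 3 alone, where it passed the filter, it was called below DMSO in cisplatin as well (-1.83; edgeR adjusted p = 0.0214).

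The effects of the drugs on the members did not add on the log2 scale. The interaction term, the effect of AU-15330 in cisplatin-treated cells minus its effect in DMSO-treated cells, was negative and called in 36 of 38 members and positive and called in 0, against 15.8% of all tested genes called lower and 17.9% called higher, with a median of -2.46 over the members and 0.0065 over all genes. It was most negative for Trim30a (-6.89 ± 0.34 SE; edgeR adjusted p = 2.51e-14), Cmpk2 (-6.63 ± 0.37; 2.99e-13) and Rtp4 (-5.88 ± 0.23; 2.74e-16). Isg20 (0.51 ± 0.29; edgeR adjusted p = 0.178) and Ifi204 (-0.0846 ± 0.21; edgeR adjusted p = 0.790) were not called. For Ifi204 the 95% interval was -0.52 to 0.35, and its responses to the single drugs were of opposite sign. The call of Mx1 (edgeR adjusted p = 0.0449), which rests on a few reads in the AU-15330 groups, was lost without replicate 1, 2, 3 or 4 (log2 -2.20 to -1.53 over the 6 leave-outs). In libraries 1 to 3 and in libraries 4 to 6 taken alone, 34 members were called negative each (7.16% and 19.3% of all genes). Without the 4 members that passed the filter only through cisplatin, 32 of 34 were called negative over all libraries.

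**Figure D4:**
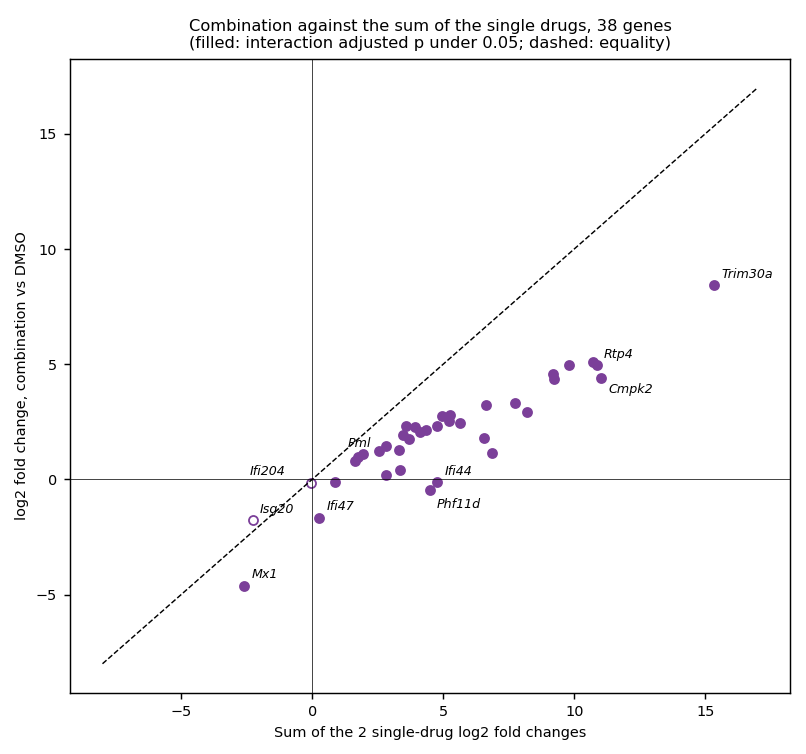
Log2 fold change of the combination against DMSO (vertical) plotted on the sum of the log2 fold changes of cisplatin and AU-15330 against DMSO (horizontal) for the 38 tested genes. Filled points have an interaction adjusted p under 0.05 and the dashed line marks equality; all 36 filled points lie below the line, and the open points are Isg20 and Ifi204.

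Upstream of these genes, no interferon gene could be tested. Of 21 ligand genes 0 passed the low-count filter, 19 or more had at most 3 reads in every library of each group, and their summed level was at most 0.825 CPM. Ifnb1 had 0 reads over the 6 DMSO libraries, 2 in AU-15330, 24 in cisplatin and 4 in the combination, and Ifnz had 0, 42, 2 and 21. At this depth the ligands lay near the floor of 3 reads, and their absence cannot be read from these counts.

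Of 9 receptor and kinase genes tested, cisplatin raised 2 and lowered 1 (against 26% and 25.7% of all genes), AU-15330 raised 1 and lowered 4 (36.2% and 37.2%), and in the combination 1 was above and 6 below cisplatin (35.4% and 32.7%). The share lowered by AU-15330 is near the background. The receptor chain Ifnar1 was not called in any of the 6 comparisons, and Ifnar2 fell with AU-15330, at -0.62 ± 0.0846 (edgeR adjusted p = 3.30e-07). Jak1 rose with AU-15330 by 0.42 ± 0.0624 (edgeR adjusted p = 1.15e-06).

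Among the transcription factors, 8 of 9 were tested, with 6 higher and 2 lower in cisplatin (all genes, 26% and 25.7%), 5 higher and 3 lower in AU-15330 (36.2% and 37.2%), and 2 higher and 4 lower in the combination against cisplatin (35.4% and 32.7%). Irf9, the DNA-binding partner in the complex at the ISRE, ran from 15.2 to 20.8 CPM (median 17.2) in DMSO, 117 to 134 CPM (median 122) in AU-15330, 85.7 to 106 CPM (median 96.2) in cisplatin and 77.4 to 102 CPM (median 95.8) in the combination. DMSO lay below all treated libraries and AU-15330 above all others, while cisplatin and the combination overlapped. The log2 fold change was 2.82 ± 0.0858 in AU-15330 (edgeR adjusted p = 6.04e-20) and 2.47 ± 0.0849 in cisplatin (edgeR adjusted p = 5.74e-18), and the combination differed from cisplatin by -0.0607 ± 0.0786 (edgeR adjusted p = 0.507). Irf7, an amplifier of interferon production, ran from 7.59 to 11.1 CPM (median 8.01) in DMSO, 154 to 182 CPM (median 169) in AU-15330, 182 to 262 CPM (median 229) in cisplatin and 112 to 148 CPM (median 124) in the combination, with DMSO below all others and cisplatin highest. Its interaction term was -5.14 ± 0.14 (edgeR adjusted p = 1.37e-19), against -2.88 ± 0.12 for Irf9 (edgeR adjusted p = 3.40e-16). Irf5 ran from 12.2 to 27.1 CPM (median 23.6) in DMSO, 0.143 to 0.617 CPM (median 0.465) in AU-15330, 26.5 to 35.4 CPM (median 33.6) in cisplatin and 1.46 to 2.74 CPM (median 2.13) in the combination. It rose with cisplatin by 0.66 ± 0.17 (edgeR adjusted p = 0.00185) with overlapping libraries, and fell with AU-15330, at -5.54 ± 0.25 (edgeR adjusted p = 1.37e-16), as did Irf2 and Irf3 at -0.79 and -0.25.

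**Figure D5:**
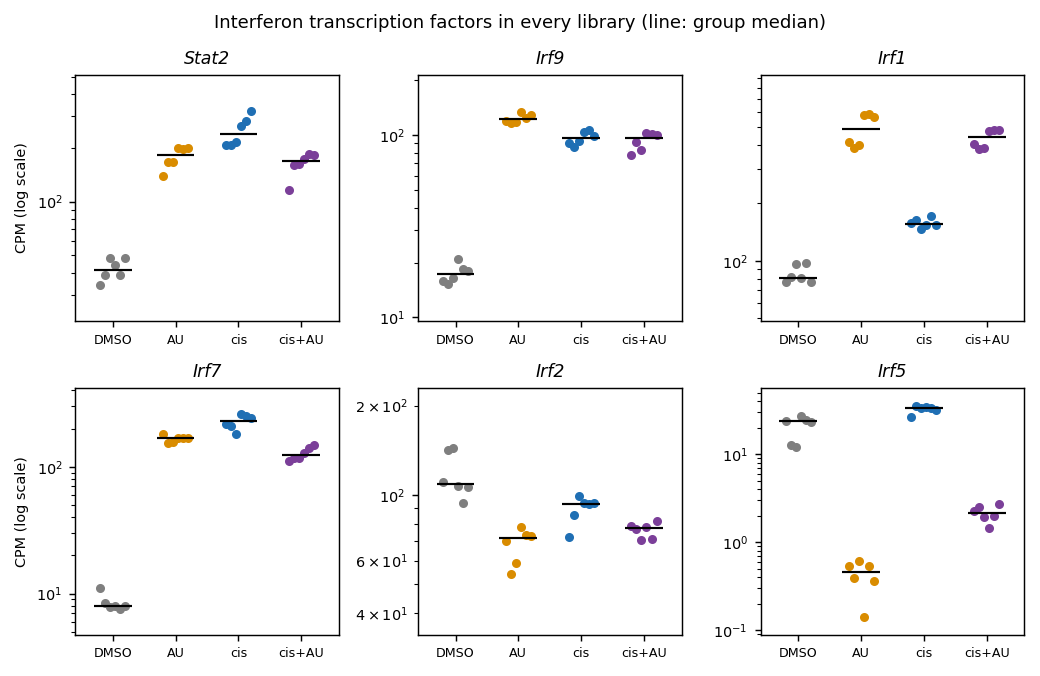
CPM of 6 interferon transcription factors in every library on a log scale, by treatment (AU, AU-15330; cis, cisplatin; cis+AU, the combination); each point is 1 library and each line a group median. Stat2, Irf9 and Irf7 are above DMSO in every treated library, and Irf5 is below DMSO in every library that received AU-15330.

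Of 8 negative regulators of the pathway, cisplatin raised 2 and lowered 1 (all genes, 26% and 25.7%), AU-15330 raised 3 and lowered 2 (36.2% and 37.2%), and in the combination 5 were above and 2 below cisplatin (35.4% and 32.7%). The shares raised by either single drug are near the background. Usp18, an enzyme that removes ISG15 and blocks the type I receptor, rose by 6.75 ± 0.22 with cisplatin (edgeR adjusted p = 2.95e-18) and 6.35 ± 0.22 with AU-15330 (edgeR adjusted p = 7.80e-19). Socs1, an inhibitor of JAK kinases, rose by 2.46 ± 0.15 with AU-15330 (edgeR adjusted p = 9.32e-14) and 1.58 ± 0.15 with cisplatin (edgeR adjusted p = 3.65e-09). Ptpn6, a phosphatase of blood and epithelial cells, fell with AU-15330, at -2.63 ± 0.16 (edgeR adjusted p = 1.16e-13).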

How the data were processed

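RNA from 24 libraries of ID8 P53 KO cells (4 treatments, 6 each) was prepared by the authors with poly(A) selection and a directional kit. According to the submitters' processing notes, STAR 2.7.1a, DESeq2 1.36.0 and mm10 were used; the counting tool, its strand setting and the annotation are not given in the sources used here. The deposited values are raw counts of reads per gene symbol in 48 columns, all matched to libraries by their labels (0 unmatched), and counts were added over the 2 lanes per library. The chi-square over its degrees of freedom was 1.36 to 1.47 between lanes and 2.30 to 122 between replicates.

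Counts were fitted with edgeR 4.0.16 (R 4.3.3): filterByExpr, TMM scaling, 4 group means, quasi-likelihood F tests on 20 residual degrees of freedom, Benjamini-Hochberg adjustment over 12941 genes and a threshold of 0.05. Errors are standard errors of log2 fold changes and intervals are 95%. CPM values use TMM-scaled library sizes, and log CPM a prior count of 2. The fit was tested on simulated data. Where a group held few reads, pooled reads were compared as a ratio with an exact Clopper-Pearson interval (scipy 1.17.1), which covers counting error only. Shared sequence was taken as exact 70-base matches between GENCODE M21 transcripts of different genes, and promoters came from RefSeq. Alternatives were DESeq2 1.42.0, other scalings, no filter, a minimum fold of 1.5, the groups compared only, a replicate block, sets of replicate numbers and leaving out each number.

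The members and lists were chosen with earlier results of these data known. Values per group were given for the member of each role with the highest mean log CPM, those with the largest called change in cisplatin or AU-15330 against DMSO, in the combination against cisplatin or in the interaction, and those called lower by a single drug; others by fold changes. Phf11b and Mx2, and genes of the pathway lists, were named beyond this rule in places after their values were seen. The treatment protocol in the labels gives 750 nM cisplatin, which is used here, while the study's methods state another dose. The values of 1 gene of the transcription factor list are not reported here, although the counts over the list include it.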

Additional observations from a re-analysis of the deposited data

Results flagged for a closer look

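In 36 of the 38 tested members the effect of AU-15330 differed between cells with and without cisplatin (edgeR interaction test, 6 libraries per group, adjusted p under 0.05), always toward a smaller or more negative effect with cisplatin. Among the antiviral effectors the log2 interaction was -4.63 for Rsad2, -6.63 for Cmpk2, -2.01 for Mx1, -4.86 for Mx2, -4.43 for Bst2, -1.33 for Ifitm3, -2.01 for Samd9l, -5.62 for Ddx60, -1.93 for Helz2 and -1.54 for Znfx1. For the ADP-ribosyltransferases and Dtx3l the log2 interaction was -2.66 for Parp9, -1.34 for Parp10, -2.19 for Parp12, -3.40 for Parp14 and -2.46 for Dtx3l. In the nuclear body and TRIM genes the log2 interaction was -2.95 for Sp100, -0.83 for Pml, -0.95 for Trim14, -1.62 for Trim21 and -6.89 for Trim30a. For the HIN200 and Phf11 genes the log2 interaction was -2.18 for Ifi203, -2.62 for Phf11b and -4.93 for Phf11d. In the Schlafen genes the log2 interaction was -4.74 for Slfn2, -5.73 for Slfn8 and -2.45 for Slfn9. Among the IFI genes the log2 interaction was -5.27 for Ifi27l2a, -4.89 for Ifi44, -2.05 for Ifi35, -1.94 for Ifi47 and -0.83 for Nmi. For the remaining genes the log2 interaction was -5.88 for Rtp4, -4.85 for Xaf1, -3.17 for Lgals3bp, -1.27 for Tor3a and -0.77 for Tdrd7. Mx1, Phf11b, Slfn2 and Slfn8 had at most 6 reads in every AU-15330 library, and Phf11b, Phf11d, Slfn2 and Slfn8 passed the low-count filter only through cisplatin. The interaction call of Slfn2 was lost without replicate 2 or 5, and that of Phf11b without replicate 2, 4, 5 or 6.

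A single library lay apart from the other 5 of its group in 16 of 152 groups of 6 (38 members in 4 treatments), by Dixon's ratio of the gap to the nearest library over the group's range; chance marks about 1 in 20 groups, or 7.6 of 152. In 11 of these 16 groups the library was replicate 1. In AU-15330 the highest library stood apart for Cmpk2 (replicate 1, ratio 0.82), Ifitm3 (replicate 1, ratio 0.635), Phf11d (replicate 5, ratio 0.813) and Rtp4 (replicate 1, ratio 0.816). In the combination the lowest library stood apart for Ddx60 (replicate 1, ratio 0.785), Helz2 (replicate 1, ratio 0.634), Parp14 (replicate 1, ratio 0.753), Dtx3l (replicate 1, ratio 0.705), Trim30a (replicate 1, ratio 0.821), Tor3a (replicate 1, ratio 0.693) and Tdrd7 (replicate 1, ratio 0.627). In AU-15330 the lowest library stood apart for Parp9 (replicate 2, ratio 0.66). In DMSO the highest library stood apart for Ifi204 (replicate 1, ratio 0.708) and Slfn8 (replicate 6, ratio 0.651). In the combination the highest library stood apart for Phf11d (replicate 5, ratio 0.686). In cisplatin the lowest library stood apart for Ifi35 (replicate 3, ratio 0.627). Without replicate 1 the counts of called members were 37 higher in cisplatin (25.9% of all genes), 26 higher and 5 lower in AU-15330 (36% and 38.8%), 11 higher and 22 lower in the combination against cisplatin (33.8% and 35.4%), and 35 negative interactions (18.5%).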

How the results depend on the processing

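Of 3369 log2 fold changes recomputed under 15 alternatives, 3202 kept their direction and side of the threshold, 91 lost the call, 34 gained one and 42 changed sign, the last always for members not called in that comparison. Counts of called members moved by over 1.5 times as follows. With a minimum fold of 1.5, the combination was above cisplatin for 4 members (11.3% of all genes), and above AU-15330 for 4 (5.57%) and below it for 0 (0.935%). In libraries 1 to 3 alone, 5 members were above AU-15330 in the combination (11.4% of all genes) and 1 (Epsti1, which passed the low-count filter there) was below DMSO in cisplatin. In libraries 4 to 6 alone, and in the replicate block fit, 1 interaction (Isg20) was positive (17.7% and 21.6% of all genes). The replicate block otherwise called 37 higher in cisplatin (28.6% of all genes), 26 higher and 5 lower in AU-15330 (38.3% and 38.8%), and 35 negative interactions (19.4%), with Phf11b lost. After removal of group means, same-numbered libraries correlated at -0.133 to 0.483 (mean 0.145), against a mean of -0.0269 for other numbers. Of 36 pairs 23 were over 0.1, and 10 of 24 libraries were closest to their own number. The main fit did not use the numbers, whereas the replicate block did.

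Changes of sign, in log2 units, were as follows. With total counts as scaling, which moved the median of all genes by 0.13 in AU-15330 against DMSO and 0.14 in the combination against DMSO, they were 0.0701 for Isg20 in cisplatin, 0.0126 for Ifitm3 and 0.12 for Trim14 in AU-15330, 0.0122 for Ddx60 and 0.0549 for Dtx3l in the combination against cisplatin, and 0.042 for Trim14, 0.00239 for Ifi204 and 0.0115 for Ifi44 in the combination against DMSO. With the replicate block they were 0.0135 (Isg20, cisplatin), 0.00322 (Trim14, AU-15330) and 0.00179 (Dtx3l, combination against cisplatin). In libraries 1 to 3 they were 0.14 for Ifitm3 and 0.10 for Trim14 in AU-15330, 0.19, 0.10, 0.10 and 0.23 for Ddx60, Helz2, Parp14 and Dtx3l in the combination against cisplatin, -0.26, -0.0867 and -0.0302 for Mx1, Helz2 and Parp14 against AU-15330, and -0.24 for Phf11b against DMSO. In libraries 4 to 6 they were 0.14 (Isg20, cisplatin), -0.0251 and -3.24 (Sp100 and Slfn8, AU-15330), 0.23, 0.0372 and -0.17 (Bst2, Trim14 and Phf11d, combination against AU-15330) and -0.0757 (Slfn8, combination against DMSO). Leaving out 1 replicate number at a time gave -0.0749 to 0.11 for Isg20 in cisplatin, -0.35 to 1.88 for Slfn8 and -0.10 to 0.0487 for Trim14 in AU-15330, -0.12 to 0.0438 for Dtx3l and -0.17 to 0.0125 for Ddx60 in the combination against cisplatin, -0.12 to 0.34 for Phf11d and -0.11 to 0.55 for Mx1 against AU-15330, and -0.20 to 0.57 for Phf11b and -0.30 to 0.00348 for Ifi44 against DMSO. The cause of these changes was not tested. The fit of the groups compared alone could not give the interaction. Depth limits Slfn2, Slfn5, Slfn8, Phf11b, Epsti1 and, under AU-15330, Mx1, whose lowest groups held at most 6 reads per library.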
